A study of Mus musculus with 6 samples.

Results

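Strong open-chromatin peaks that were called in Acta2 knockout (KO) mouse cardiac fibroblasts and had no counterpart in wild-type (WT) fibroblasts are described here. A peak was included if it lay on chromosomes 1 to 19 of the KO list, had a fold enrichment over the library's background of at least 5, and shared not even 1 base with a WT peak. The rule was met by 6417 of the 121748 KO peaks, which is 5.36% of the 119724 KO peaks on these chromosomes and 8.10% of the 79268 strong ones. They are called KO-alone peaks below. The other 72851 strong KO peaks overlapped a WT peak and are called shared. Both lists, and so the choice of peaks, rest on 1 ATAC-seq library per genotype, each made from 10000 cells, with no replicate check.

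ATAC-seq maps accessible DNA by the insertion of a transposase, and RNA-seq covered a pair of KO and a pair of WT samples of the same cell type (2 each). Acta2 encodes α-smooth muscle actin, the actin of stress fibres in myofibroblasts. The labels describe cardiac fibroblasts of WT and Acta2fl/fl mice that were both given Adeno-Cre and then TGFβ for 2 days. They also describe treatment of live mice, with tamoxifen, for a MerCreMer, begun at 6 weeks of age (75 mg/kg each day, 5 days). Coronary ligation followed at 9 weeks, with tamoxifen again from 1 day before to 5 days after it. The RNA labels add that Tcf21 lineage-traced eGFP+ fibroblasts were sorted from digested hearts for both assays. All 6 libraries carry the culture and the live-mouse description, and which of them a library was made from is not given in the sources used here.

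Injury and TGF-β drive fibroblasts to become myofibroblasts, which contract and deposit matrix. Their enhancers lie mostly in introns and between genes, and AP-1 (Jun and Fos proteins), TEAD, RUNX, GATA and C/EBP factors are known to bind many of them. Promoters of active genes tend to be open in most cells, whereas distal sites differ more between cell states.

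The sequences of 9 KO-alone peaks are shown, because the results below turn on them. They are the plus strand of GRCm38 (mm10), 5′ to 3′, from 100 bases before the summit to 100 bases after it, with every letter of a searched motif in capitals. Peaks among the 5 highest folds come before the windows nearest to genes with a large RNA change.

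Gm45677 window, chr8:15519831-15520031: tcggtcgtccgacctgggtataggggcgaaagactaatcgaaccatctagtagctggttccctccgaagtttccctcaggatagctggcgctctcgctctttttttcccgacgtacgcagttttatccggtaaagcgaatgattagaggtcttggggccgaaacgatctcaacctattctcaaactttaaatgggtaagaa
5730507C01Rik window, chr12:18610284-18610484: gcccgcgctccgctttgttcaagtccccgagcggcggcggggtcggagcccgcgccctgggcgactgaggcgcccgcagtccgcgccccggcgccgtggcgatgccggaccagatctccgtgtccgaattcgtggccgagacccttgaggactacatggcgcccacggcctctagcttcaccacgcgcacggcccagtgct
Psg19 window, chr7:18803702-18803902: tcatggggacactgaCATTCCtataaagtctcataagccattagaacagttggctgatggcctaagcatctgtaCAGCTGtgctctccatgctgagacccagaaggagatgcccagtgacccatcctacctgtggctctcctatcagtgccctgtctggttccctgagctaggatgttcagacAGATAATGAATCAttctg
Efhd2 window, chr4:141886833-141887033: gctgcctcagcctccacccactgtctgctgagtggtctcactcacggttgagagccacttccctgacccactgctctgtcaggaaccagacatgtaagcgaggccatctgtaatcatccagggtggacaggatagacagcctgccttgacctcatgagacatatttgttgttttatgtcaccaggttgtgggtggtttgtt
Cda window, chr4:138371089-138371289: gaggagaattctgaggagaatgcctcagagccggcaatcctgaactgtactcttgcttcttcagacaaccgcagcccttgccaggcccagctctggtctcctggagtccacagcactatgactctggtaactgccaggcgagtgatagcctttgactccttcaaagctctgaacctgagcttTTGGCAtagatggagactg
Syt13 window, chr2:92886936-92887136: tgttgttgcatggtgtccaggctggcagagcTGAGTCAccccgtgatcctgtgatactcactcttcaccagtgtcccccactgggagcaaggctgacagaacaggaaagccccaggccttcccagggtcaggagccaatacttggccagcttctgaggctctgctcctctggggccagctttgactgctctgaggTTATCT
Hmga1b window, chr11:120753678-120753878: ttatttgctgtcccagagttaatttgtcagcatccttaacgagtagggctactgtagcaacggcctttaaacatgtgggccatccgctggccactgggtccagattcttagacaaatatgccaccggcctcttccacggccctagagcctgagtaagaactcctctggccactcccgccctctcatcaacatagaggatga
Acta2 window, chr19:34238642-34238842: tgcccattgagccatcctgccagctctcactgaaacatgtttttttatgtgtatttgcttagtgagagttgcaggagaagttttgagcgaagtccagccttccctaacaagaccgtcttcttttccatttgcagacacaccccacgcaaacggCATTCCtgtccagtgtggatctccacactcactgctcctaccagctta
Ccn2 window, chr10:24608329-24608529: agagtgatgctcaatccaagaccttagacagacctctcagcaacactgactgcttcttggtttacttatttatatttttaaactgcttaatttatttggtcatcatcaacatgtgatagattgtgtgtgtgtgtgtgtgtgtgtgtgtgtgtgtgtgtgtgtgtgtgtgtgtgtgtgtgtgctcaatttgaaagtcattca

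In the Psg19 window the AP-1 letters TGAATCA follow the GATA letters directly, and the TEAD letters (GGAATG, read here on the minus strand) and an E-box (CAGCTG) lie nearer the 5′ end. The Syt13 window holds the AP-1 letters TGAGTCA and, at its end, the GATA letters on the minus strand. Cda has the NF1 letters TTGGCA and Acta2 the TEAD letters, while none of the 11 searched motifs was found in the other 5 windows. The Gm45677 window resembles the large ribosomal RNA, a gene present in many copies in the genome. This resemblance was not measured here. The Ccn2 window holds a long run of tg repeats, and 51.7% of it is repeat-masked. Of the Hmga1b window 90.5% is repeat-masked. The summit of the Sox11 peak lies in a UTR and its sequence is not shown.

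Most KO-alone peaks were low. Their fold enrichment ran from 5.10 through a median of 5.53 to 40.8, and 3723 of them (58.0%) sat at the lowest 2 values the list can take above 5. Only 366 reached a fold of 8, 65 a fold of 10 and 11 a fold of 15. Shared peaks had a median fold of 9.35. The KO-alone peaks were narrower as well, with a median of 510 bp against 1093 bp in all shared strong peaks, which were not matched for height. Just inside the threshold stood 2222 KO-alone peaks with a fold of 5.10, a −log10 q of 5.91 and a median width of 483 bp. Just outside it, 3498 further KO peaks without a WT overlap had a fold of 4.68, a −log10 q of 5.01 and a median width of 460 bp. The peaks were chosen by these values, fold and overlap, which are given as a description.

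How often a peak was called in 1 library alone depended on its height in both directions. Folds in each list were whole multiples of 0.425 in KO and 0.4108 in WT, so heights can be counted in steps. At 7 steps, the lowest in either list, 71.7% of KO peaks had no WT overlap and 77.0% of WT peaks had no KO overlap. At 12 steps, where a KO fold of at least 5 begins, the shares were 30.1% and 27%. They fell to 13.9% and 9.71% at 15 steps and to 2.55% and 1.94% at 20 steps. With the genotypes exchanged, the same number of steps gave 5578 WT-alone peaks, which is 7.29% of the WT peaks of that height. From 13 steps, where a WT fold of at least 5 begins, 4195 peaks (5.84%) were alone in KO and 3461 (5.04%) in WT.

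**Figure D1:**
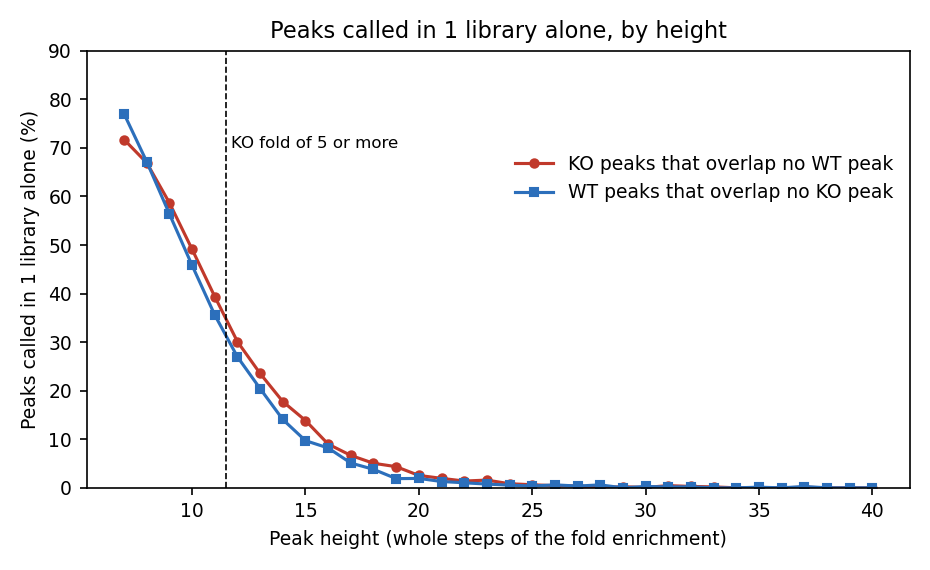
Share of peaks (%) that overlap no peak of the other library, against peak height in whole steps of the fold enrichment, for the KO library (circles) and the WT library (squares), 1 library each; the dashed line marks the start of a KO fold of at least 5. Both curves fall from over 70% at 7 steps to below 3% at 20 steps, with the KO curve above the WT curve at 12 steps (30.1% against 27%).

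WT peaks were often close by. The median distance from a KO-alone peak to the nearest WT peak was 3065 bp. A WT peak lay within 500 bp of 706 KO-alone peaks (11%), within 2000 bp of 2497 (38.9%) and within 10000 bp of 5170 (80.6%). For 59 of them there was none within 100000 bp. The Efhd2 peak, the fifth by fold, had a WT peak 349 bp away, and the Acta2 peak had one 167 bp away.

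KO-alone peaks were distal. Of the 6417, 3045 (47.5%) had their summit in an intron and 2749 (42.8%) between genes. Coding exons held 200 summits, UTRs 160, other exons 85, and 178 (2.77%) lay within 1 kb of the start site of a gene of the RNA table. Among shared strong peaks 16.2% lay within 1 kb of a start site. Shared peaks with folds up to 6.38, the range that holds the lower 3 in 4 KO-alone peaks, had 3.26% there, and WT-alone peaks of the same steps 1.99%. The median distance from summit to nearest start site was 25896 bp for KO-alone peaks, 25613.5 bp for shared peaks of that fold range and 29419.5 bp for WT-alone peaks. Peaks are not replicates, and these shares have no test.

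**Figure D2:**
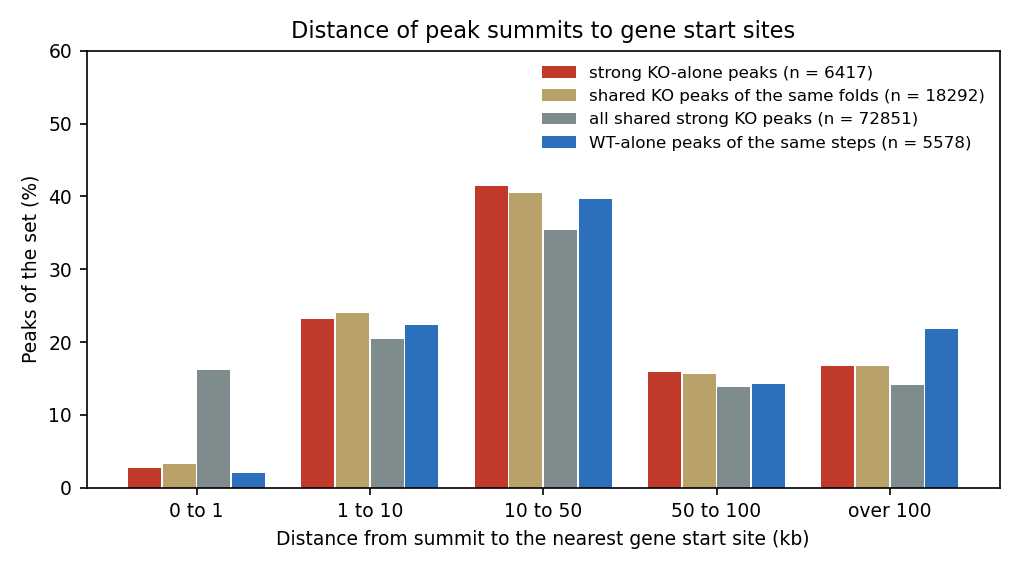
Share of each set of peaks (%) by the distance in kb from summit to the nearest gene start site, for KO-alone peaks, shared KO peaks with folds up to 6.38, all shared strong KO peaks and WT-alone peaks of the same steps. In the class within 1 kb, all shared strong peaks reach 16.2% and the other sets stay between 1.99% and 3.26%.

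Along the genome the peaks were spread over all 19 autosomes, from 6.83% of the strong KO peaks of chromosome 8 to 9.55% of those of chromosome 4. In 423 windows of 5 Mb with at least 50 strong KO peaks, the share that was KO-alone had a median of 8.0% and ran from 1.89% to 27.4%. The highest share was on chromosome 12 between 20 and 25 Mb, where 23 of 84 strong KO peaks were KO-alone. In the same window 19 of 79 WT peaks of the same steps (24.1%) were WT-alone. Between 15 and 25 Mb chromosome 12 also held 5 of the 11 KO-alone peaks with a fold of at least 15 and 8 of the 65 with a fold of at least 10. Of the 40 KO-alone peaks there, 13 had a summit word of 31 bases that occurs more than once in the genome. The next window, 25 to 30 Mb, with the Id2 and Sox11 peaks, had 32 of 154 (20.8%), and 12.8% of its WT peaks were WT-alone.

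Of the 10 highest folds, 9 are described. The highest, 40.8, was a peak of 288 bp at chr8:15519797-15520084, between genes and 17651 bp upstream of Gm45677. Fold 27.6 was reached at chr12:18609323-18611374, 95874 bp downstream of the start of its nearest gene, 5730507C01Rik. Fold 27.2 was reached at chr7:18802876-18804998, 5282 bp upstream of Psg19, a pregnancy-specific glycoprotein gene. A fold of 25.1 was reached at chr4:141886040-141887776, 12013 bp upstream of Efhd2, which encodes a calcium-binding protein. Of the 5 next highest, 3 lay on chromosome 12, far from the start of their nearest gene. For folds 22.1 and 19.6 this was 9030624G23Rik, 155051 and 1086949 bp away. For fold 18.7 it was Asap2, 174854 bp away. The remaining pair lay near Srbd1 (fold 20.4) and Polr1d (fold 17.4), a subunit shared by RNA polymerases I and III.

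Over all heights, repeats and duplicated sequence were about as common in KO-alone peaks as in low shared peaks. Among high peaks they were more common in KO-alone than in shared peaks, and far more common in WT-alone peaks. At least 50% of the summit window was repeat-masked in 8.54% of KO-alone peaks, 8.87% of shared peaks with folds up to 6.38 and 18.6% of WT-alone peaks. The summit word of 31 bases occurred more than once in the genome for 254 KO-alone peaks (3.96%), for 4.50% of shared peaks of that fold range and for 12.0% of WT-alone peaks. At a fold of at least 8 it did so for 29 of 366 KO-alone peaks (7.92%) and 3.32% of shared peaks, and windows at least 50% repeat-masked made up 6.83% and 4.86%. In the 169 WT-alone peaks with a fold of at least 8, these shares were 40.8% and 47.3%. Among the 65 KO-alone peaks with a fold of at least 10 the word was repeated for 12. The authors kept unique alignments, per the labels' protocols. GC content of the windows had a median of 48.8% in KO-alone peaks and in shared peaks of that fold range.

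The AP-1 letters were most frequent in the highest KO-alone peaks, with no steady rise below them. TGANTCA, searched like every motif on both strands, was in 1066 of 6417 KO-alone windows (16.6%), in 13.8% of all shared strong windows, in 15% of shared windows with folds up to 6.38 and in 11.5% of WT-alone windows. Among the 366 KO-alone peaks with a fold of at least 8, which is 19 steps, 86 held it (23.5%, 95% Wilson interval 19.4 to 28.1%). WT-alone peaks of at least 19 steps had 11.6% (8.05 to 16.5%), and shared peaks of at least 19 steps 12.7% (12.4 to 13%). This class has no upper limit. Folds in it ran to 40.8 in KO-alone peaks and to 1108.5 in shared peaks, so heights are not matched. Between 12 and 18 steps the KO-alone share did not climb, at 15.8%, 15.6%, 18% and 15.1% for 12, 13, 14 to 15 and 16 to 18 steps. At 16 to 18 steps it was below the 16.8% of shared peaks. At 12 steps the shares were 15.8% (14.3 to 17.3%) in KO-alone, 14.6% in shared and 12.0% in WT-alone peaks. The intervals cover counting error only, and neighbouring peaks may share sequence. Mboat2, Tle3 and Polr1d each have a KO-alone peak with a fold of at least 8 and these letters in its window.

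**Figure D3:**
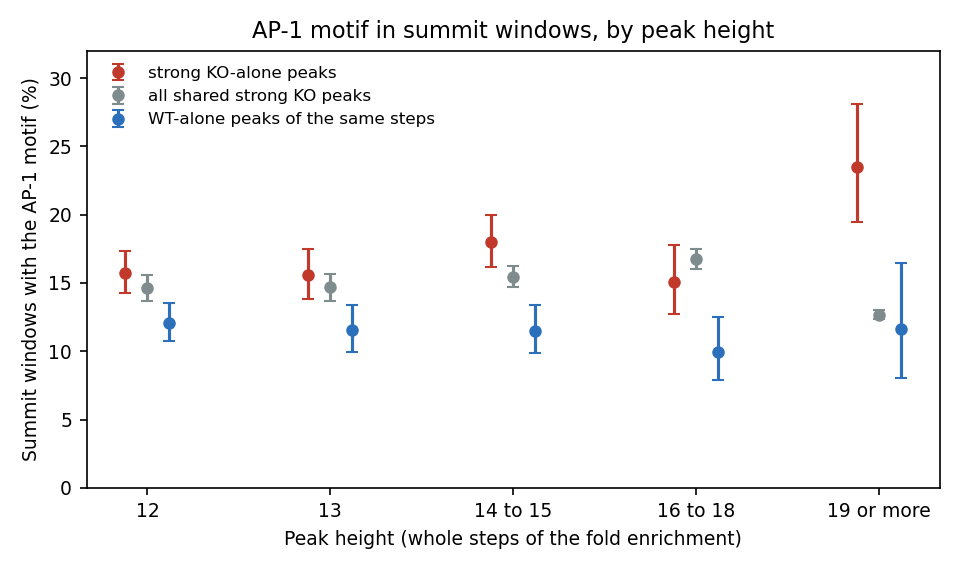
Share of summit windows (%) with the AP-1 letters against peak height in steps, for KO-alone, all shared strong and WT-alone peaks; bars are 95% Wilson intervals. KO-alone peaks show no steady rise up to 18 steps (15.1% at 16 to 18, shared 16.8%). In the class of 19 steps or more KO-alone peaks stand at 23.5%, WT-alone peaks at 11.6% and shared peaks at 12.7%. That class has no upper limit, so heights in it are not matched between the sets.

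The shares of the other motifs were as follows, without a test. RUNX letters (TGTGGT) were in 16.4% of KO-alone windows and 16.9% of shared windows with folds up to 6.38, TEAD letters (GGAATG) in 13.9% and 15%, and the E-box CAGCTG in 13.2% and 14.4%. Letters of NF1, searched as TTGGCA, stood at 12.8% and 12.7%. GATA sites, searched with the letters AGATAA, came to 10.4% in KO-alone and 9.54% in shared windows. For C/EBP, searched as TTGCNNAA, the shares were 7.46% and 8.64%. ETS letters (CCGGAA) were in 2.93% and 2.97%, and in 5.08% of all shared strong windows. Further shares were 2.62% and 2.86% for the CTCF core AGGGGGC, 1.06% and 1.03% for the CArG box, bound by SRF, and 0.281% and 0.426% for the MEF2 box. A match is a stretch of letters, not a bound site.

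RNA levels had no part in the choice of peaks. Acta2 was lower in both KO libraries, with CPM values (counts scaled to a common library size) of 256 and 265 against 2186 and 2200 in WT, the direction that the labels give. The RNA libraries held between 8429166 and 11370115 estimated counts. With 12192 genes tested by edgeR's quasi-likelihood test, 35.7% were called at an adjusted p under 0.05, 18.3% higher and 17.4% lower in KO. With RLE size factors the larger side changed, to 2167 higher and 2173 lower, as it did in DESeq2. Whether the samples are separate cultures or animals is not stated, and the p-values cover only how much these libraries differ among themselves, possibly for technical reasons. The fitted biological coefficient of variation, the spread between libraries of a genotype beyond counting error, was 0.031. That is below the 0.1 and 0.2 tried as alternatives, under which far fewer genes were called. Fibroblast markers were present in all 4 libraries, with a summed level of 4023 to 4032 CPM in KO and 5166 to 5278 CPM in WT over 13 genes. Summed macrophage and leukocyte markers were 188 and 189 CPM (KO) and 111 and 106 CPM (WT) in total, where 6 of 10 tested genes were higher, 0 lower and Fcgr1 at 0 in all 4. Endothelial markers summed to 508 and 520 against 406 and 380 CPM, with 9 of 12 higher and 1 lower, and pericyte and smooth muscle markers to 240 and 237 against 113 and 124 CPM, with 4 of 8 higher and 3 lower. Cardiomyocyte markers summed to between 13.8 and 14.6 CPM, with Pln at 0. Fewer cells of a type and less RNA per cell cannot be told apart in such samples, and the part of other cell types in the results below was not tested.

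The KO-alone peaks had 4783 nearest genes, taking for each summit the gene of the RNA table with the closest start site. Of these, 2758 passed the filter on low counts and were tested, and the other 2025 were not. In KO, 587 of the 2758 were higher (21.3%, beside 18.3% of all tested genes) and 422 were lower (15.3%, beside 17.4%). DESeq2 called fewer, 287 higher (10.4%, beside 7.89% of all genes) and 241 lower (8.74%, beside 8.99%). In edgeR their median log2 fold change was 0.024, against 0.0014 over all tested genes. Changes of at least 2-fold were called upward in 108 (3.92%, against 2.99% of all tested genes) and downward in 42 (1.52%, against 2.02%). The genes nearest to shared peaks with folds up to 6.38 had 20% higher and 17.5% lower. When only KO-alone peaks with no WT peak within 2000 bp were kept, 349 of 1780 nearest genes were higher (19.6%) and 286 lower (16.1%), so the higher share was then no longer above that of these shared peaks. WT-alone peaks had 2419 tested nearest genes, 18% of them higher and 19.9% lower. Of the 4783 genes, 1530 were also nearest to a WT-alone peak, which is 32% of these genes and 35.4% of those of the WT-alone peaks.

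The shares moved with distance. Among tested genes with a KO-alone summit within 10 kb of the start site, 215 of 856 were higher (25.1%) and 119 lower (13.9%). Within 50 kb it was 472 of 2121 (22.3%) and 302 (14.2%). Where the closest KO-alone summit was over 100 kb away, 49 of 284 were higher (17.3%) and 63 lower (22.2%). Low shared peaks and WT-alone peaks also had more lower than higher genes there, while all shared strong peaks had 5 of each among 23. Shared peaks with folds up to 6.38 had 13.8% higher and 19.8% lower, and WT-alone peaks 15.4% and 23.4%. Shared peaks with folds up to 6.38 gave 22.4% higher and 16.2% lower within 10 kb, and WT-alone peaks 19.1% and 18.2%. Only 48 genes with a KO-alone summit within 1 kb were tested, 15 of them higher (31.3%) and 8 lower. All these sets are compared with the same 4 RNA libraries, and genes are not replicates, so the differences between them carry no test. The median level of the tested genes was alike, at a log2 CPM of 4.61 for KO-alone peaks within 10 kb and 4.67 for WT-alone peaks within 10 kb.

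**Figure D4:**
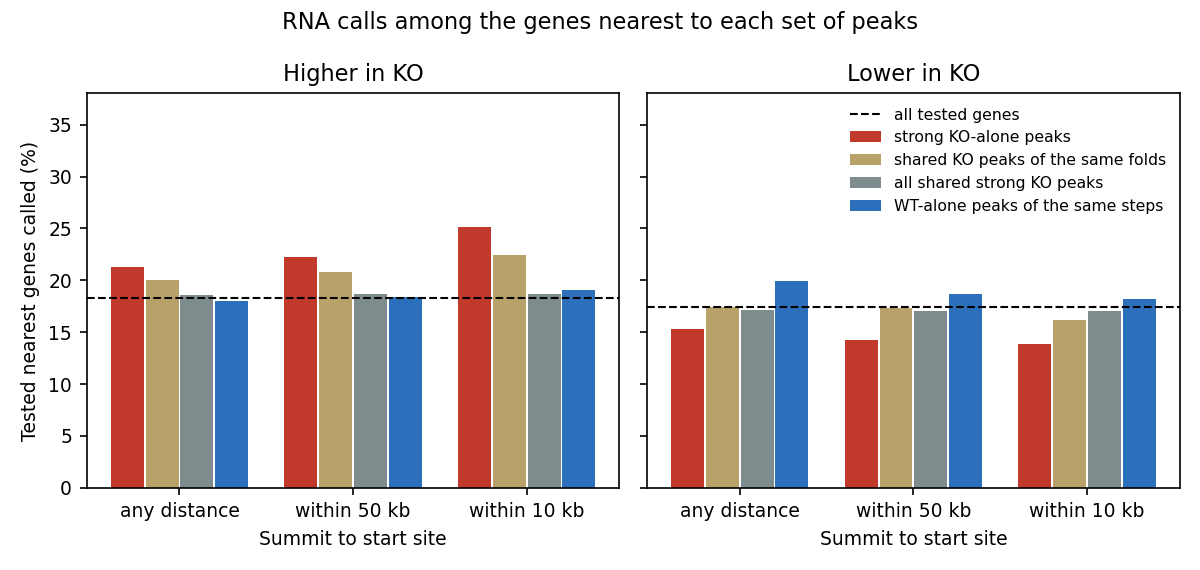
Share (%) of the tested nearest genes called higher (left) or lower (right) in KO at an edgeR adjusted p under 0.05, by set of peaks and by distance from summit to start site; dashed lines show all 12192 tested genes, 18.3% higher and 17.4% lower. KO-alone peaks run from 21.3% higher at any distance to 25.1% within 10 kb, and from 15.3% to 13.9% lower.

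Genes with several KO-alone peaks, and those beside high ones, showed a like split. Of 202 tested genes nearest to 3 or more KO-alone peaks, 53 were higher (26.2%) and 24 lower (11.9%), whereas 149 tested genes nearest to 3 or more WT-alone peaks had 16.1% higher and 24.2% lower. Beside KO-alone peaks with a fold of at least 8, 49 of 196 were higher (25%) and 26 lower (13.3%). Shared peaks of at least that fold had 18.7% and 16.9%. For WT-alone peaks with a fold of at least 8 it was 9 of 72 (12.5%) and 25 (34.7%). That fold begins at 20 steps in WT and 19 in KO. The summit word was repeated in the genome for 40.8% of these WT-alone peaks and 7.92% of these KO-alone peaks. Windows with and without the AP-1 letters gave close shares, with 21.2% of the nearest genes higher where a window held them and 21.6% where a window lacked them. Leaving out summits whose word of 31 bases is repeated gave 21.3% higher and 15.2% lower.

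A stretch of chromosome 4 between 135 and 145 Mb had a high share of higher genes, though few of all higher nearest genes. It held 111 KO-alone peaks, and 20 of their 36 tested nearest genes were higher and 5 lower. Most tested genes of that stretch were called whether near a KO-alone peak or not, with 41 of all 83 higher (49.4%) and 13 lower. Cda, Efhd2 and C1qb lie in it. Without these peaks, 567 of 2722 nearest genes were higher (20.8%) and 417 lower (15.3%).

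Genes were ranked by log2 change among those called, with a KO-alone summit within 50 kb of the start site, an average log2 CPM not below 2 and no overlap between the groups. The highest rise was that of Cda, which encodes cytidine deaminase. It stood at 17.0 and 13.3 CPM in KO, against 0.240 and 0.664 in WT, a log2 fold change of 5.01 ± 0.31 (SE, edgeR adjusted p = 5.38e-13). It has 2 KO-alone peaks, chr4:138370558-138371346, 3197 bp upstream of the start, and chr4:138351270-138351687 in an intron with AP-1 letters, but also 2 WT-alone peaks. The window of the intron peak is 75.6% repeat-masked. Syt13, of the synaptotagmin family of membrane trafficking proteins, stood at 11.5 and 11.1 CPM in KO against 2.04 and 2.43 CPM in WT, a log2 change of 2.33 ± 0.22 (edgeR adjusted p = 2.90e-09). Its KO-alone peak at chr2:92886864-92887345 lay 28062 bp upstream.

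Sox11, a developmental transcription factor, rose from 1.2 and 2.21 CPM in WT to 7.27 and 9.58 CPM in KO, by 2.28 ± 0.28 in log2 (edgeR adjusted p = 2.79e-07). It was nearest to 5 KO-alone peaks and no WT-alone peak, and 1 of the 5 lay in its UTR at chr12:27338892-27339719. Mboat2, a lysophospholipid acyltransferase, went from 2.40 and 3.76 CPM to 14.9 and 14.8 CPM, a log2 change of 2.25 ± 0.20 (edgeR adjusted p = 7.17e-10). Its KO-alone peak, in an intron 12918 bp from the start, had a fold of 8.08 and AP-1 letters. Ngfr, a receptor of the TNF receptor superfamily, was at 7.01 and 6.75 CPM in KO, against 1.92 and 1.77 in WT (log2 change 1.89). In Galnt18, a mucin-type glycosyltransferase with a KO-alone peak 2181 bp into the gene, the levels were 48.0 and 43.7 against 14.5 and 15.5 CPM (log2 change 1.61). Prune2 (1.44), Tmem171 (1.42), E030030I06Rik (1.37) and the cation channel Trpv2 (1.34) completed the 10 highest, each with 1 KO-alone peak. Engase (3.89) and Tie1 (2.09), described below, lay under the level limit of this ranking.

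Genes also fell beside KO-alone peaks, and Acta2 was among them. Its log2 change was -3.07 ± 0.03 (SE, edgeR adjusted p = 1.59e-32), and its KO-alone peak at chr19:34238542-34238842, at the lowest fold of 5.10, lay beyond the end of the gene, 16848 bp downstream of its start. Ccn2, the matricellular protein also called CTGF and a target of TGF-β and of YAP, stood at 109 and 110 CPM in KO, against 912 and 927 in WT, a log2 change of -3.07 ± 0.04 (edgeR adjusted p = 5.96e-30). It was nearest to 4 KO-alone peaks, with folds between 5.53 and 5.95, and no WT-alone peak. The closest of them lay 12987 bp downstream of its start at chr10:24607693-24608705.

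Hmga1b showed the lowest log2 change, -5.09 ± 0.09, from 207 and 200 CPM in WT to 6.83 and 5.11 CPM in KO (edgeR adjusted p = 1.81e-26). This value is uncertain, since 92.7% of the words of 31 bases in its transcripts also occur in other genes. Serpinf1, which encodes the secreted factor PEDF, fell from 585 and 548 CPM to 239 and 243 CPM (log2 change -1.23) and has 2 KO-alone peaks, the closer one 3867 bp upstream. That closer peak, with a fold of 5.10, is 77.1% repeat-masked in its window, and its summit word occurs 28266 times in the genome. Plekhb1 (-2.18), the surface peptidase Dpp4 (-1.49), Setbp1 (-1.41), the prolyl hydroxylase P4ha3 (-1.27), the matrix proteoglycan Prelp (-1.22) and the protease inhibitor Slpi (-1.11) completed the 10 lowest. Of the transcript words of Ccn2, 19.7% occur in other genes, and of those of E030030I06Rik 26.5%.

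**Figure D5:**
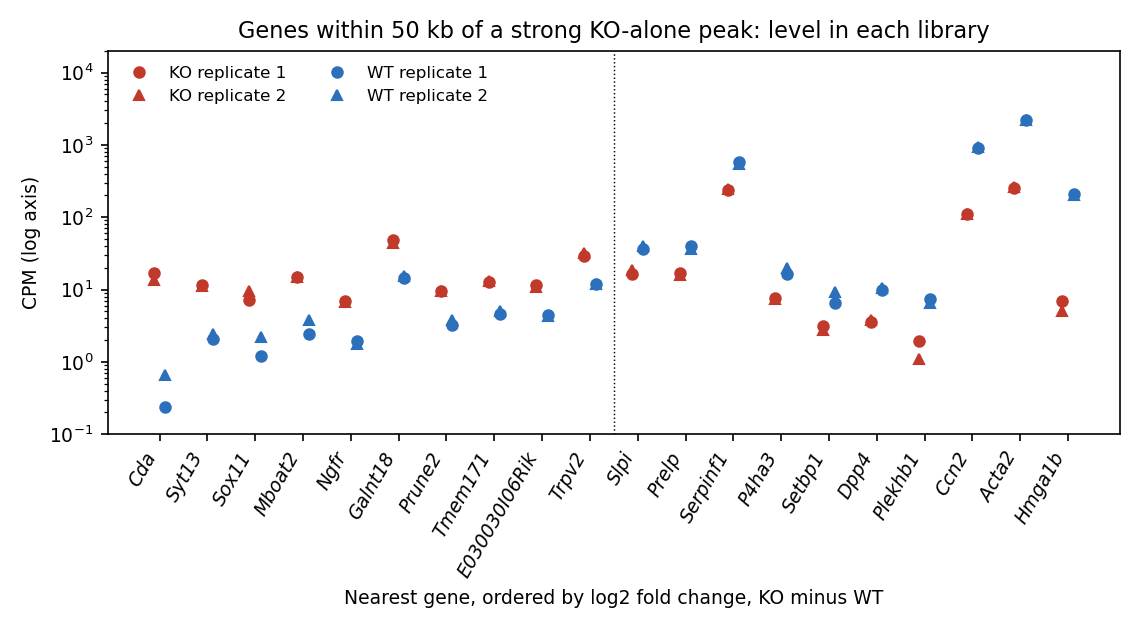
Level in each RNA library (CPM, log axis) of the genes with the 10 highest and the 10 lowest log2 changes that passed the test, have a KO-alone summit within 50 kb, an average log2 CPM not below 2 and no overlap between groups, ordered from Cda (5.01) to Hmga1b (-5.09); red symbols are the 2 KO libraries and blue symbols the 2 WT libraries. The dotted line parts higher from lower genes, and the colours do not overlap because the ranking asked for this.

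The genes with most KO-alone peaks were mixed in direction. Of the 4783 nearest genes, 3606 had 1 KO-alone peak, 863 had 2 and 314 had 3 or more. Lpp, a focal adhesion protein of smooth muscle with a long gene body, had 8 and was at 511 and 541 CPM in KO against 437 and 434 CPM in WT (log2 change 0.27, edgeR adjusted p = 9.51e-07). Id2, an inhibitor of basic helix-loop-helix factors and a BMP target, had 7 and rose from 42.3 and 43.8 CPM to 85.1 and 88.0 CPM, by 1.01 ± 0.07 in log2 (edgeR adjusted p = 2.75e-12). The 7 Id2 peaks lay between 112094 and 645398 bp upstream, and 3 of them held AP-1 letters. Zfp462, also with 7, did not pass the test (log2 change 0.02, edgeR adjusted p = 0.95).

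With 6 KO-alone peaks each, Atg7, an autophagy enzyme (-0.22), and Ywhaq, a 14-3-3 protein (-0.11), were lower. The Ywhaq peaks lay between 108049 and 1327695 bp upstream of its start. Tgfbr2, the type II TGF-β receptor, had its peaks between 53187 and 755113 bp upstream. Its levels of 29.2 and 33.7 CPM in KO, against 34.3 and 31.5 in WT, overlap. It did not pass the test (log2 change -0.07, edgeR adjusted p = 0.637). Tle3 (0.05) and Ube2e1 (0.06) did not pass either, and Gm47907 was not tested. Engase, an endoglycosidase, had 42 summed counts in KO and 2 in WT, a ratio of 16.3 at equal library size with an exact interval of 4.24 to 139, counting error only. The fitted log2 change of 3.89 (edgeR adjusted p = 0.000147) depends on the small count added by the fit. Of its 6 peaks, 5 lay between 29700 and 120558 bp downstream of its start, in introns of any gene, not necessarily Engase.

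Of the genes nearest to the 10 highest folds that were tested, Efhd2 and Polr1d were called and Asap2, Srbd1 and 9030624G23Rik were not. Over all tested genes 35.7% were called. Efhd2 was at 145 and 147 CPM in KO, against 66.4 and 65.7 in WT, a log2 change of 1.14 ± 0.05 (edgeR adjusted p = 1.01e-15), and Polr1d at 143 and 135 against 110 and 110 CPM (log2 change 0.33, edgeR adjusted p = 1.02e-05). Levels of Asap2 and Srbd1 gave log2 changes of -0.04 and -0.49 that did not pass the test (edgeR adjusted p = 0.935 and 0.118). 9030624G23Rik did not pass (log2 change -0.44) with 0.701 to 1.56 CPM, and 48.8% of its words of 31 bases occur in other genes. Gm45677 was at 0 in all 4 libraries, and Psg19 and 5730507C01Rik were too low to test.

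Genes of the contractile and adhesion lists rose more often than they fell, over the whole lists as well as near KO-alone peaks. Of 11 contractile genes nearest to a KO-alone peak, all tested, 5 were higher and 2 lower, with a median log2 change of 0.26, and over all 27 tested contractile genes 17 were higher and 2 lower, with a median of 0.39. Csrp1, a LIM protein of the cytoskeleton, was at 416 and 424 CPM against 218 and 222 CPM (log2 change 0.93), and Myl9, a myosin light chain, at 942 and 908 against 508 and 521 CPM (0.85). Tpm1 (0.26), Smtn (0.49) and Actn1 (0.21) were the other 3, and the lower 2 were Acta2 and the non-muscle myosin Myh10 (-0.26). In the adhesion list 6 of 11 were higher and 1 lower, with a median of 0.27, the same as that of all 23 tested genes, 15 of them higher. The integrin gene Itgb3, with a KO-alone peak 1137 bp upstream, was at 4.38 and 4.2 against 2.28 and 2.65 CPM (log2 change 0.79), and the talin gene Tln2 was lower (-0.33).

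Matrix genes fell more often than they rose, over the whole list as well as near KO-alone peaks. The list had 25 KO-alone and 33 WT-alone peaks. Of 17 genes nearest to a KO-alone peak, all tested, 3 were higher and 8 lower, with a median log2 change of -0.29. Of all 38 tested matrix genes 5 were higher and 22 lower, with a median of -0.25. Beside Ccn2, the lower genes were the collagen genes Col14a1 (-1.15), Col3a1 (-0.52) and Col5a2 (-0.30), Thbs2 (-0.95), Dcn (-0.83), Postn (-0.79) and Fbn1 (-0.47). Postn, a matricellular protein of activated fibroblasts, went from 932 and 972 CPM to 537 and 561 CPM. Timp3, an inhibitor of metalloproteinases (0.37), the matricellular Tnc (0.38) and Ccn1 (0.17) were higher. Dcn, Postn and the fibroblast transcription factor Tcf21 (-0.82) were the 3 fibroblast markers with a KO-alone peak, all 3 lower. Over all 13 tested fibroblast markers 8 were lower and 2 higher, with a median of -0.46.

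In the TGF-β and BMP list, 16 genes were nearest to a KO-alone peak, with 42 such peaks among them. The list had 24 WT-alone peaks. Of these 16, 5 were higher and 2 lower, with a median log2 change of 0.03, against 10 higher and 8 lower of all 30 with a median of -0.0050. The ligands Bmp4 (0.79) and Inhba (0.33), the BMP antagonist Nog (1.62), Id2 and the repressor Tgif1 (0.18) were higher. Bmp6 (-0.58) and Smad7, the inhibitory Smad (-0.56), were lower, and Smad7 had 3 KO-alone and 6 WT-alone peaks. Smad2, Smad3, Smad6, Bmp2, Ltbp1, Skil, Acvr1 and Bmpr1a did not pass the test, with log2 changes between -0.21 and 0.13. In the growth factor list, with a median of -0.05 both near KO-alone peaks and over all 32 tested, Kitl (0.37) and Vegfa (0.38) were higher, and Sfrp1, a secreted Wnt inhibitor, fell from 495 and 499 CPM to 229 and 224 CPM (-1.13). Igf1 (-0.68) and Tcf7l2 (-0.25) also fell, and the other 7 of 12 tested did not pass.

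Of 29 tested transcription factor genes nearest to a KO-alone peak, 7 were higher and 7 lower, with a median log2 change of 0.02, against 16 higher and 12 lower of all 55 with a median of 0.03. Higher were Sox11, Gata4 (0.96), Meox1 (0.64), Cebpb (0.40), Jun (0.34), Yap1 (0.32) and Wwtr1, the gene of TAZ (0.20). Meox1, a homeobox factor of activated fibroblasts, was at 40.3 and 37.9 CPM in KO, against 25.1 and 25 in WT. Klf4 (-0.63), Nfib (-0.54), Sox9 (-0.53), Runx1 (-0.24), Ebf2 (-0.24), Nfix (-0.17) and Tcf21 were lower. Klf4 was nearest to 7 WT-alone peaks and 2 KO-alone peaks. Of the AP-1 genes in the list beside Jun, Fos (0.07) and Fosl2 (0.15) did not pass.

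Among inflammatory and interferon genes, 5 of 12 tested were higher and 3 lower, with a median log2 change of 0.18, against 10 higher and 18 lower of all 36 with a median of -0.10. The neutrophil chemokine genes Cxcl1 (0.58), with a KO-alone peak 1520 bp from its start, and Cxcl5 (0.69) were higher, as were Rsad2 (0.54), Tnfaip3 (0.28) and Nfkbia (0.19). Ifit1 fell from 511 and 518 CPM to 243 and 241 CPM (-1.09), and Cxcl12 (-0.89) and Ccl7 (-0.07) were lower.

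Markers of other cell types also had KO-alone peaks nearby, as did 4783 of all 25746 genes of the RNA table. Of 6 tested endothelial markers, 5 were higher and Flt1 was lower (-0.64). Tie1, an endothelial receptor kinase with a KO-alone summit 898 bp upstream of its start, was at 2.80 and 2.65 CPM in KO, against 0.480 and 0.774 in WT (log2 change 2.09). The others were Kdr (0.51), Pecam1 (0.43), Eng (0.37) and Esam (0.63). Mcam, a pericyte and smooth muscle marker, was higher (1.10), and so was the complement gene C1qb (1.82), a macrophage marker at 2.37 and 3.83 against 1.2 and 0.553 CPM. Csf1r (0.23) and Fcer1g (0.30) did not pass the test. Tnnt2 (-0.74) and Cnp (-0.47), of the cardiomyocyte and Schwann lists, were lower, and the mesothelial Lrrn4 (-0.25) and the neural Mbp (-0.27) did not pass. Sox10 and Kcna1 were too low to test. Among the list genes called here, Esam, Itgb3, Myh10 and Wwtr1 lost their call whichever RNA library was left out. Bmp6, C1qb, Ccl7, Cnp, Ebf2, Itga11, Nfix, Pecam1, Runx1, Tln2, Tnfaip3, Tnnt2, Vcl and Yap1 lost it without at least 1 of the 4 libraries, as did Atg7 among the genes with most peaks. Kdr, Rsad2, Tcf7l2, Tgif1 and Vegfa kept it there but lost it in DESeq2, as did all genes of the previous 2 sentences other than C1qb and Vcl.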

How the data were processed

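ATAC-seq peaks of 1 KO and 1 WT library and RNA-seq gene values of 2 KO and 2 WT samples were analysed. Trimming used Trim Galore 0.6, per the labels' protocols. The same source gives alignment of ATAC reads to mm10 with Bowtie2 2.3 and removal of duplicate, mitochondrial and non-unique alignments. MACS2 then called peaks in each library without a local background, per the labels' protocols; its version is not given in the sources used here. The authors' peak lists give a fold ratio over background, −log10 p and q values and a display score (not used). The RNA table holds the authors' estimated counts per gene, not whole counts: RNA reads were aligned with STAR 2.5.3a, per the labels' protocols.

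Estimated counts were rounded, filtered with filterByExpr, scaled by TMM and tested with edgeR 4.0.16 (quasi-likelihood, R 4.3.3) in all 12192 genes that passed, with Benjamini-Hochberg adjustment. The planned test assumed whole counts; the rounding was the change made. The steps were tested on simulated data. Peaks were compared by an overlap of 1 base. Summits were assigned to the nearest start site of 25699 table genes in the GRCm38 annotation (GENCODE M21), matched by ID. Windows of 100 bases on either side of a summit were searched for motifs. CPM are counts scaled to the TMM-adjusted library size. Named genes were the 10 largest changes in each direction among called genes with a summit within 50 kb, no overlap between groups and an average log2 CPM not below 2, genes with most peaks, genes at the 10 highest folds and the gene lists. The members and the lists were chosen with earlier results of these data known. DESeq2 1.42.0, RLE scaling, no filter, fixed dispersions, other fold and overlap limits, shorter windows and leaving out each sample were tried as alternatives. Replicates of a number did not deviate together (correlation 0.0058), so samples were not paired. The RNA kit is not stated to keep strand, so overlapping genes cannot be told apart. A few items among the named genes and sequences are not reported here.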

Additional observations from a re-analysis of the deposited data

How the results depend on the processing

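The number of KO-alone peaks was 14921 at a fold of at least 4, 1773 at 6 and 366 at 8, and 3921 when no WT peak was allowed within 2000 bp. Counting all GENCODE genes put 5.66% within 1 kb of a start site. With 50 bases on either side of the summit, motif shares were 6.37% (AP-1), 6.76% (TEAD), 8.49% (RUNX), 5.06% (GATA), 1.34% (CTCF core), 6.39% (NF1), 3.82% (C/EBP), 7.04% (E-box), 1.43% (ETS), 0.514% (CArG) and 0.171% (MEF2). Higher nearest genes numbered 1000 at a fold of at least 4, 212 at 6, 349 (19.6% of those tested) with no WT peak within 2000 bp, 287 by DESeq2, and 287 and 69 at a biological coefficient of variation of 0.1 and 0.2. Lower nearest genes numbered 758, 131, 286, 241, 167 and 35 under the same settings in that order, and 653 when only tested genes could be nearest. Over all genes the larger side turned from higher to lower under DESeq2 (962 higher, 1096 lower) and RLE size factors (2167 and 2173). The fixed dispersions gave 1027 and 753, then 223 and 175. Under DESeq2 the nearest genes had 10.4% higher and 8.74% lower, beside 7.89% and 8.99% of all genes. Leaving out 1 sample gave 465 to 495 higher and 341 to 361 lower nearest genes, and 1704 to 1906 and 1671 to 1768 over all genes. With the replicate number as a block the counts were 590 and 437 near KO-alone peaks and 2256 and 2152 over all genes. Of 92 called genes named, 70 kept their call under DESeq2, 32 at the higher dispersion and 78 to 84 with 1 sample left out. Without the chromosome 4 stretch, chosen after seeing the data, the counts were 567 and 417. No called gene named here changed sign under these settings.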
